A study of Homo sapiens with 6 samples.

Results

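The Tribbles family comprises 3 human genes, TRIB1 (ENSG00000173334), TRIB2 (ENSG00000071575) and TRIB3 (ENSG00000101255). The genes were taken by these identifiers from tables of 61496 features, and all 3 were among the 27514 features that passed the expression filter. They were chosen by family and with their Sev against control differences in these same libraries already known, so those differences are described here without a p-value. RNA was sequenced from U251, an established human glioma cell line, in 3 libraries of untreated control cells and 3 libraries of cells exposed to sevoflurane (Sev) gas for 2 h. Sev is an inhaled anesthetic. The treatment description lists gas concentrations of 5.1%, 1.7% and 3.4% and no label assigns one to a single library, but the legend of the published expression comparison names 5.1%, which is taken here for all 3 Sev libraries. The methods speak of independent experiments for quantitative data in general, without naming the sequencing, and no label says that replicates were separate cultures, so p-values measure the spread between these libraries, which may be technical.

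Tribbles proteins are pseudokinases: they keep the fold of a protein kinase but have little or no catalytic activity. They act as scaffolds, with a pseudokinase domain that binds a client protein and a C-terminal tail that recruits the ubiquitin ligase COP1, so that clients such as C/EBPα are ubiquitinated and degraded, and the tail also holds a motif that binds MEK1. TRIB3 is further known as a target of the stress-induced transcription factor ATF4 and as a binding partner of AKT, and TRIB1 and TRIB2 are known for their role in acute myeloid leukemia.

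Library totals were between 38624292 and 46318311 counts. TMM normalization factors were 1.03 to 1.08 in control and 0.918 to 0.988 in Sev libraries, and the first principal component, which held 69.0% of the variance, separated the groups. Of 7 markers of a glioma line, including GFAP, VIM, NES and SOX2, all were present at 4.26 to 1027 FPKM, and their sum was 1215 to 1423 FPKM in control and 1225 to 1343 FPKM in Sev libraries. Most of this sum was VIM, at 828 to 1027 FPKM, so it says little of the other markers. SOX2 was lower in Sev, at 51.9 to 54.2 against 93.8 to 102 FPKM. S100B was also lower, and CD44 was higher, with no overlap between the groups in each case. The 5 markers of leukocytes, endothelium, epithelium, neurons and oligodendrocytes were at most 0.258 FPKM in every library. At these low levels PECAM1 (endothelium) and MBP (oligodendrocytes) were higher in Sev without overlap. PECAM1 was at 0.115 to 0.139 against 0.0553 to 0.105 FPKM, and MBP at 0.152 to 0.258 against 0.102 to 0.126 FPKM. In bulk RNA, fewer cells of a type and less RNA per cell cannot be told apart.

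TRIB1 had the largest and most even difference of the family. Its level in CPM, here each count divided by the TMM-scaled total of its library, was 33.4, 31.9 and 33.2 in control libraries 1 to 3 and 121, 117 and 116 in Sev libraries 1 to 3. No Sev library came near a control library, and the replicates of each group lay close together. The means were 32.8 ± 0.803 CPM (SD, n = 3) and 118 ± 2.26 CPM (SD, n = 3), a 3.60-fold difference and a log2 fold change of 1.85 (standard error 0.074). The underlying counts were 1264 to 1611 in control and 4412 to 4615 in Sev libraries. Among 15189 tested protein-coding genes, 661 (4.35%) had a larger log2 fold change.

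TRIB2 was the most abundant member, and its Sev libraries were uneven. Its level was 197, 185 and 188 CPM in control libraries and 256, 362 and 199 CPM in Sev libraries 1 to 3. Sev library 2 stood well above the others, whereas Sev library 3 lay just above the highest control. The means were 190 ± 6.42 CPM (SD, n = 3) and 272 ± 82.3 CPM (SD, n = 3), a 1.43-fold difference and a log2 fold change of 0.52 (standard error 0.19). On the FPKM scale, which carries no TMM factor, the groups overlapped: Sev library 3 was at 34.6 FPKM, inside the control range of 33.6 to 37.3 FPKM, and Sev libraries 1 and 2 were at 42.9 and 58.5 FPKM. Without Sev library 2 the log2 fold change was 0.26, and without Sev library 3 it was 0.70. A larger log2 fold change was found in 3151 (20.7%) of the protein-coding genes.

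TRIB3 was the least abundant member in both groups. Its level was 12.7, 9.49 and 9.66 CPM in control libraries and 15.1, 17.6 and 16.9 CPM in Sev libraries, and the closest pair of libraries, control 1 and Sev 1, differed by less than the range of the controls. The means were 10.6 ± 1.83 CPM (SD, n = 3) and 16.5 ± 1.27 CPM (SD, n = 3), a 1.56-fold difference and a log2 fold change of 0.64 (standard error 0.15). In FPKM the libraries were at 3.64, 2.60 and 2.69 in control and at 3.84, 4.31 and 4.43 in Sev. A larger log2 fold change was found in 2488 (16.4%) of the protein-coding genes.

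The Sev libraries lay above all control libraries in CPM for each of the 3 genes, and the same separation toward higher values was seen in 28.3% of all tested features and 31.2% of tested protein-coding genes. TRIB1 alone of the 3 also had a log2 fold change over 1, and 11.2% of all tested features and 8.90% of protein-coding genes had both. These counts describe how the genes were picked and are not a test of them.

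**Figure D1:**
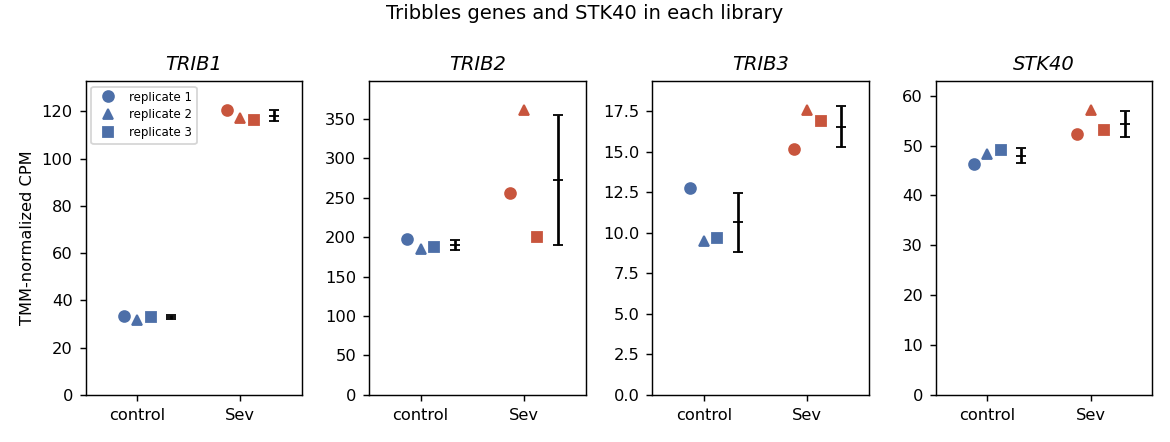
TMM-normalized CPM of TRIB1, TRIB2 and TRIB3 in each library, and of STK40 beside them, with points for the 3 control and 3 Sev libraries and a black bar for the mean and SD. The Sev libraries of TRIB1 lie together at 116 to 121 CPM, while those of TRIB2 run from 199 to 362 CPM.

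STK40, a Tribbles-related pseudokinase that also binds COP1, was measured beside the family. It was 46.2, 48.4 and 49.1 CPM in control and 52.3, 57.2 and 53.2 CPM in Sev libraries. Its log2 fold change of 0.18 (standard error 0.080, 95% interval −0.0071 to 0.36) did not pass (adjusted p = 0.107 by the quasi-likelihood test of edgeR, Benjamini-Hochberg method over all tested features, as for every adjusted p given here). In FPKM its groups overlapped, at 7.19 to 7.45 in control and 7.21 to 7.61 in Sev libraries.

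FPKM values are scaled by gene length, so they allow the members to be set beside each other. The family total was 48.0, 42.7 and 44.2 FPKM in control and 69.5, 84.1 and 61.6 FPKM in Sev libraries. In control cells TRIB2 held 78.3 ± 0.523% (SD, n = 3) of that total, TRIB1 held 15.1 ± 0.384% (SD, n = 3) and TRIB3 held 6.59 ± 0.863% (SD, n = 3). The order TRIB2, TRIB1, TRIB3 was the same in all 6 libraries, with no neighbours in the order overlapping within a group. In Sev libraries the share of TRIB1 was 32.7%, 25.3% and 36.7%, and the share of TRIB2 was 61.8%, 69.6% and 56.1%. The share of TRIB1 was lowest in Sev library 2, where TRIB2 was highest. The share of TRIB3 was 7.59%, 6.10% and 6.09% in control and 5.52%, 5.12% and 7.19% in Sev libraries, and these ranges overlap. Per molecule of TRIB2 by FPKM, TRIB1 stood at 0.189, 0.193 and 0.197 in control and at 0.528, 0.364 and 0.653 in Sev libraries.

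**Figure D2:**
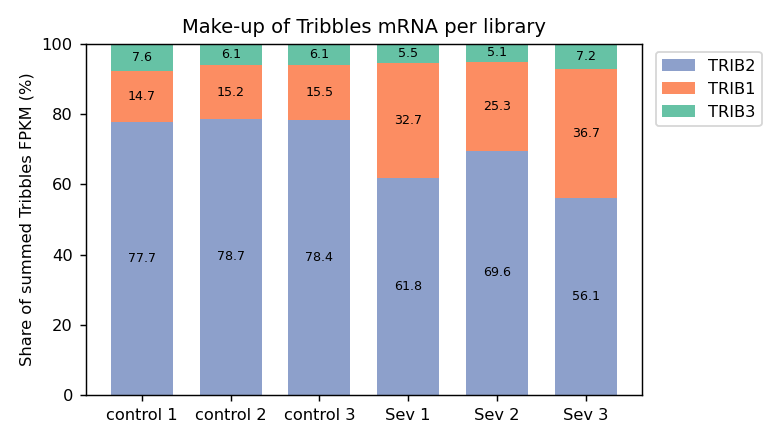
Share of TRIB1, TRIB2 and TRIB3 in the summed FPKM of the family in each library, in percent, as stacked bars that start at 0. TRIB2 fills 77.7% to 78.7% of the control bars and 56.1% to 69.6% of the Sev bars, and TRIB1 fills most of the remainder.

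Within all protein-coding genes, TRIB1 moved from percentile 70.1 of the level in control to percentile 91.9 in Sev libraries. TRIB2 was already at percentile 96.1 and stood at 96.9 in Sev, and TRIB3 was at 46.9 and 59.5. The spread between replicates also set the members apart. The SD of log2 CPM of TRIB1 was 0.036 in control and 0.027 in Sev, lower than in most of the 500 genes of nearest mean level (percentiles 11.2 and 7.6). That of TRIB2 was 0.048 in control but 0.43 in Sev, at percentile 97 of its 500 like-level genes, whose median SD in Sev was 0.085. TRIB3 had a control SD of 0.24 (percentile 76.8) and a Sev SD of 0.11 (percentile 30).

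Sev library 2 held a value over 1.3 times the next Sev library for TRIB2 (1.41 times) but not for TRIB1 or TRIB3. The same was seen in 549 of 10907 protein-coding genes (5.03%), against 197 genes (1.81%) for Sev library 1 and 289 genes (2.65%) for Sev library 3. Among 117 pathway genes of the lists described further on with at least 5 CPM in Sev, 8 (6.84%) had this pattern, near the share of all protein-coding genes. They were RELA, ETS2, PPP1R15A, SLC38A2, SLC6A9, VEGFA, ILK and KSR1, a set chosen after the values were seen. SLC38A2, an amino acid transporter gene and ATF4 target, was 340, 554 and 244 CPM in Sev libraries 1 to 3. What sets Sev library 2 apart for these genes was not tested.

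By GENCODE 29 on GRCh38, TRIB1 lies on chromosome 8 from 125430321 to 125438405, TRIB2 on chromosome 2 from 12716889 to 12742734, and TRIB3 on chromosome 20 from 362835 to 397559, all on the plus strand. The ratio of count to FPKM implied a length, over the 6 libraries, of 5049 to 5089 bases for TRIB1, 5643 to 5694 for TRIB2 and 3740 to 3768 for TRIB3. The merged exons of GENCODE 29 cover 4138, 4588 and 3434 bases, less than these implied lengths. Few stretches of their transcripts are shared with other genes. None of the 4135 stretches of 50 bases in TRIB1 and none of the 4634 in TRIB2 occur in a transcript of another gene, and 3 of the 3411 in TRIB3 do. When coding sequences were aligned in pairs from end to end, the longest run of identical aligned bases was 20 for TRIB1 and TRIB2, 15 for TRIB1 and TRIB3 and 13 for TRIB2 and TRIB3. The longest annotated coding sequences have 372, 343 and 385 codons for TRIB1, TRIB2 and TRIB3.

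Genes within 500 kb of the members moved in both directions. Around TRIB1, 2 of 7 tested genes rose and none of the 7 fell, where 22.1% of all tested features rose and 21.5% fell at an adjusted p under 0.05. The nearest tested gene after TRIB1 is the lincRNA ENSG00000253111, 28.5 kb away, with 0, 1 and 0 counts in control and 15, 21 and 17 counts in Sev libraries. It is 1 of the 2 that rose, but it passed the expression filter only through its Sev libraries, so it could only be called higher. It was tested in 12 of the 15 alternative settings. The nearest before TRIB1 is NSMCE2, a subunit of the SMC5/6 complex at 63.2 kb, with a log2 fold change of −0.30 that did not pass (adjusted p = 0.127), although it passed when only library size was used for scaling (adjusted p = 0.0492). Around TRIB2, 2 of 4 tested genes fell and none of the 4 rose. ENSG00000261117, 0.662 kb before TRIB2, had a log2 fold change of 0.67 (adjusted p = 0.0910), and ENSG00000225649, 224 kb after it, fell by 1.06 on the log2 scale (adjusted p = 0.00614). MIR3125 lies inside TRIB2 and had 0.376 CPM in control and 0.375 CPM in Sev. Around TRIB3, 1 of 11 tested genes rose and 4 fell. RBCK1, a ligase subunit of the linear ubiquitin chain assembly complex 9.94 kb after TRIB3, fell from 34.2 ± 1.22 CPM (SD, n = 3) to 18.5 ± 0.389 CPM (SD, n = 3). NRSN2, 3.18 kb before TRIB3, had 20.4 ± 3.39 against 27.2 ± 15.5 CPM (SD, n = 3 each) and did not pass (adjusted p = 0.416), and its log2 fold change ran from −0.061 without Sev library 1 to 0.78 without Sev library 2 (adjusted p = 0.0274 for the latter). Whether reads were assigned by strand is not given in the sources used here.

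**Figure D3:**
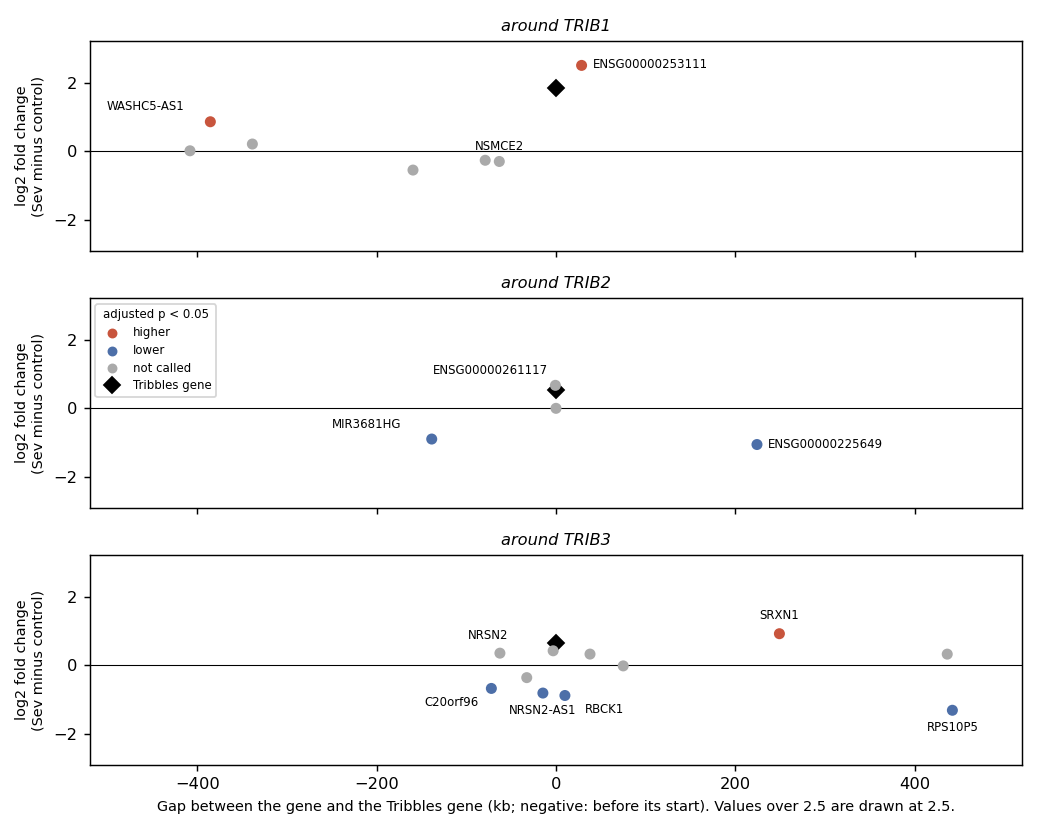
Log2 fold change (Sev minus control) of tested genes within 500 kb of each Tribbles gene, against their gap in kb, with the Tribbles gene as a diamond at 0. TRIB3 stands at 0.64 between neighbours that include RBCK1 at −0.88, and the value of ENSG00000253111 beside TRIB1 is drawn at the edge of the scale.

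The stress pathway that leads to TRIB3 was measured in a list of 14 genes, which encode eIF2 kinases, eIF2α itself (EIF2S1), eIF2 phosphatase cofactors and stress-related transcription factors. At an adjusted p under 0.05, which 43.7% of all tested features and 45.9% of protein-coding genes reached, 10 of the 14 rose and none of the 14 fell, with a median log2 fold change of 0.72 against −0.0056 over all tested features. The 4 that did not pass were CEBPB and the eIF2 kinase genes EIF2AK1, EIF2AK3 and EIF2AK4. Those kinase genes had log2 fold changes of −0.041, −0.049 and 0.067 (adjusted p = 0.703, 0.797 and 0.503). EIF2AK2, also an eIF2 kinase gene, rose by 0.29 on the log2 scale (adjusted p = 0.0234). The study's own threshold, an unadjusted p under 0.05 and a change beyond 1 or −1 on the log2 scale, was passed by 3 of the 14 and by 23.5% of all tested features. ATF4, the transcription factor whose translation increases when eIF2α is phosphorylated, was 187, 173 and 177 CPM in control and 372, 411 and 349 CPM in Sev libraries. Its log2 fold change was 1.08 ± 0.086 (SE; adjusted p = 0.000147), beside 0.64 for TRIB3. DDIT3, which encodes CHOP, a factor that binds the TRIB3 promoter together with ATF4, was 12.0, 15.1 and 14.8 CPM in control and 29.1, 28.2 and 30.6 CPM in Sev libraries. The groups of both genes were well separated, and DDIT3 rose by 1.07 ± 0.12 (SE) on the log2 scale (adjusted p = 0.00049). PPP1R15B, a cofactor of the eIF2α phosphatase, rose from 128 ± 4.52 to 213 ± 11.3 CPM (SD, n = 3 each). ATF3 and CEBPG, which encode bZIP partners of this response, rose by 0.71 and 0.81 on the log2 scale.

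Among 44 tested ATF4 target genes other than the Tribbles genes, 20 rose, 5 fell and 19 did not pass, so 56.8% were called, beside 43.7% of all tested features (22.1% higher and 21.5% lower). Their median log2 fold change was 0.35. TRIB3, at 0.64, lay above that median. CHAC1, a glutathione-degrading enzyme, was 7.47, 7.72 and 10.3 CPM in control and 34.5, 30.4 and 35.1 CPM in Sev libraries, a rise of 1.97 ± 0.15 (SE) on the log2 scale (adjusted p = 0.00013). SLC7A1, a transporter of cationic amino acids, rose by 1.27 on the log2 scale (adjusted p = 7.42e-05). Other targets went the opposite way. DDIT4, an inhibitor of mTORC1, fell by 3.06, AARS1, the alanyl-tRNA synthetase, fell by 0.91, VEGFA, an angiogenic growth factor, fell by 0.98, and PSPH, an enzyme of serine synthesis, fell by 0.47 on the log2 scale (adjusted p = 2.27e-05, 0.000169, 0.00428 and 0.00832). When only library size was used for scaling, 17 of the list rose and 8 fell, and on log2(FPKM + 0.1) 16 rose and 10 fell. INHBE and FGF21 were not tested, and ADM2 had 0 counts in each control and 70, 49 and 105 counts in Sev libraries. ADM2 is among the 20 that rose but passed the expression filter only through its Sev libraries, so it could only be called higher.

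Promoter windows were read because ATF4 acts through a C/EBP-ATF composite element, here searched as TGATGNAAN on both strands. Windows run from 250 bases before to 50 bases after the start in RefSeq on GRCh38.p14. TRIB2 matched 1 window and TRIB3 matched 3 that overlap each other, and no window was used for TRIB1. The element was in none of these 4 windows, while 1215 of 27305 genes (4.45%) had it, and 13 of 36 ATF4 target genes with a window (36.1%) did. The palindromic cAMP response element TGACGTCA was also in none of the 4, and 2.25% of genes had it. The window of TRIB2 opens with TTGTTTAC, a forkhead (FOXO) element that was searched on both strands after the window had been read, and 1.18% of genes hold it. The window of TRIB2 had 77.3% G and C bases and the 3 of TRIB3 had 77.0%, 75.3% and 75.7%, against a median of 58.7% over 35116 windows. A window without a match says only that these letters are not within it. The window of TRIB2 (chr2:12716686-12716985, plus strand), with the forkhead element in capitals, and the first window of TRIB3 (chr20:381045-381344, plus strand), with no letters in capitals, are shown.
TRIB2: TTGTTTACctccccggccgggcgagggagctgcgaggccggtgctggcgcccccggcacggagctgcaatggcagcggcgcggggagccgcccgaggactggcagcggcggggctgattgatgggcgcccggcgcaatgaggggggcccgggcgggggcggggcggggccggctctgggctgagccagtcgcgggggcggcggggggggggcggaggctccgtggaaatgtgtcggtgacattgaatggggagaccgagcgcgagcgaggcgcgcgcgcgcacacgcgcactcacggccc
TRIB3: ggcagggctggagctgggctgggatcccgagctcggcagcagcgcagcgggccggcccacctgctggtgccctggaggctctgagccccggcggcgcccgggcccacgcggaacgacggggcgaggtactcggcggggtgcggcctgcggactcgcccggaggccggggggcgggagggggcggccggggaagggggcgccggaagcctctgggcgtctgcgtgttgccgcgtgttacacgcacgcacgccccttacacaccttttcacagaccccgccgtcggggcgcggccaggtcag

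Stretches of 30 bases from 4 ATF4 target genes are shown for comparison, with the composite element or its reverse complement in capitals. They lie at chr15:40953251-40953280 (plus strand, CHAC1), chr7:97872457-97872486 (minus strand, ASNS), chr1:212565206-212565235 (plus strand, ATF3) and chr19:33374061-33374090 (plus strand, CEBPG) on GRCh38.p14. CHAC1, ATF3 and CEBPG rose in Sev, and ASNS, an asparagine synthetase gene, had a log2 fold change of 0.14 that did not pass (adjusted p = 0.344).
CHAC1: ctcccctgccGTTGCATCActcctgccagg
ASNS: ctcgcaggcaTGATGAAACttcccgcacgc
ATF3: aaggtcaggaTGATGGAAGgctgtcatatt
CEBPG: gcgcggcgtcTGATGCAACctgccggcaac

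The degradation machinery that Tribbles proteins recruit was followed in a list of ligase genes. Of 17 genes of the COP1 ligase, its adaptors and related ubiquitin enzymes, 7 rose, 2 fell and 8 did not pass, so 52.9% were called, near the 43.7% of all tested features and 45.9% of protein-coding genes. Their median log2 fold change was 0.18, and the split became 5 higher and 4 lower with library size only and 3 and 3 on log2(FPKM + 1) without a filter. COP1, the ubiquitin ligase that binds the Tribbles tail, was 34.8 ± 0.773 CPM in control and 42.4 ± 3.63 CPM in Sev libraries (SD, n = 3 each), a rise of 0.28 ± 0.093 (SE) on the log2 scale (adjusted p = 0.0401). This call was lost in 11 of 15 alternative settings, over which the adjusted p ran from 0.0189 to 0.350, and with any library but Sev 2 left out it was lost (adjusted p = 0.0775 to 0.151). DET1, the substrate adaptor that links COP1 to a CUL4 ligase, fell from 14.1 ± 3.87 to 6.20 ± 1.51 CPM (SD, n = 3 each), a log2 difference of −1.18 ± 0.25 (SE; adjusted p = 0.00747). SMURF1, a ligase that TRIB2 also engages, was 100, 100 and 102 CPM in control and 217, 236 and 204 CPM in Sev libraries, a rise of 1.12 ± 0.080 (SE) on the log2 scale (adjusted p = 0.000108). BTRC, the substrate receptor β-TrCP, fell by 0.43 on the log2 scale. The ligase gene SIAH1 and the conjugating enzyme genes UBE2D3 and UBE2D2 rose by 0.47, 0.48 and 0.44 on the log2 scale (adjusted p = 0.00304 to 0.00518), and the call of UBE2D2 was lost on log2(FPKM + 1) without the filter (adjusted p = 0.0533).

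Of 26 tested genes of clients and binding partners, 13 rose, 3 fell and 10 did not pass, so 61.5% were called, beside 43.7% of all tested features and 45.9% of protein-coding genes. Their median log2 fold change was 0.33. Scaled by library size alone, 10 rose and 3 fell with a median of 0.19, and on the 3 FPKM settings 8 or 9 rose and 3 fell with medians of 0.055 to 0.11. CEBPA, whose product C/EBPα is the best-known client of TRIB1 and TRIB2, rose from 2.84 ± 0.629 to 5.01 ± 0.525 CPM (SD, n = 3 each), a rise of 0.82 ± 0.20 (SE) on the log2 scale (adjusted p = 0.0137). On log2(FPKM + 1), where differences of weakly expressed genes shrink, its value was 0.37, and without the filter the call was lost (adjusted p = 0.0789). CEBPB, which encodes the related C/EBPβ, had a log2 fold change of 0.10 (95% interval −0.18 to 0.39, adjusted p = 0.521), which turned to −0.035 with library size only. MAP2K1, which encodes MEK1, had 0.26 and did not pass (adjusted p = 0.0513). It passed with DESeq2's size factors (adjusted p = 0.0451) and with at least 10 counts in every library (adjusted p = 0.0486).

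AKT1, which encodes a kinase that TRIB3 binds, had a log2 fold change of −0.015 (95% interval −0.28 to 0.25, adjusted p = 0.930), which ran from −0.13 to 0.069 with a library left out. The transcription factor gene ETS1 rose from 74.5 ± 23.7 to 280 ± 40.2 CPM (SD, n = 3 each), a rise of 1.91 ± 0.22 (SE) on the log2 scale (adjusted p = 0.000536). ETV5, a transcription factor of the same family, rose by 0.61, SQSTM1, the autophagy receptor that TRIB3 binds, rose by 0.65, and SMAD3, a signal transducer of TGF-β and TRIB3 partner, rose by 0.41 on the log2 scale. CDC25C, a phosphatase of the cell cycle, and ACACB, an acetyl-CoA carboxylase, both fell by 0.79 on the log2 scale. HNF4A had 0, 0 and 3 counts in control and 22, 17 and 33 counts in Sev libraries, and MLXIPL and PPARG were not tested. HNF4A is among the client and partner genes that rose but passed the expression filter only through its Sev libraries, so it could only be called higher.

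Of 36 other pseudokinase genes tested, 9 rose, 11 fell and 16 did not pass, so 55.6% were called, beside 43.7% of all tested features (22.1% higher and 21.5% lower). Their median log2 fold change was −0.066, and with library size only 7 rose and 15 fell. TEX14, which encodes a pseudokinase of germ cell bridges, rose from 1.67 ± 0.141 to 20.2 ± 2.01 CPM (SD, n = 3 each), a log2 fold change of 3.60 (adjusted p = 1.8e-05). PRAG1 and IRAK2 rose by 1.07 and 0.98, and NRBP1 rose by 0.48 on the log2 scale. SCYL3 fell by 1.40, VRK3 fell by 0.99, TBCK fell from 21.8 ± 0.235 to 10.9 ± 0.411 CPM (SD, n = 3 each), and PIK3R4, the regulatory subunit of the class III PI3-kinase, fell by 0.71 on the log2 scale. TRIB1, at 1.85, lay between TEX14 and CAMKV, which was at 1.51 on 3 to 11 counts in control and 17 to 19 counts in Sev libraries.

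**Figure D4:**
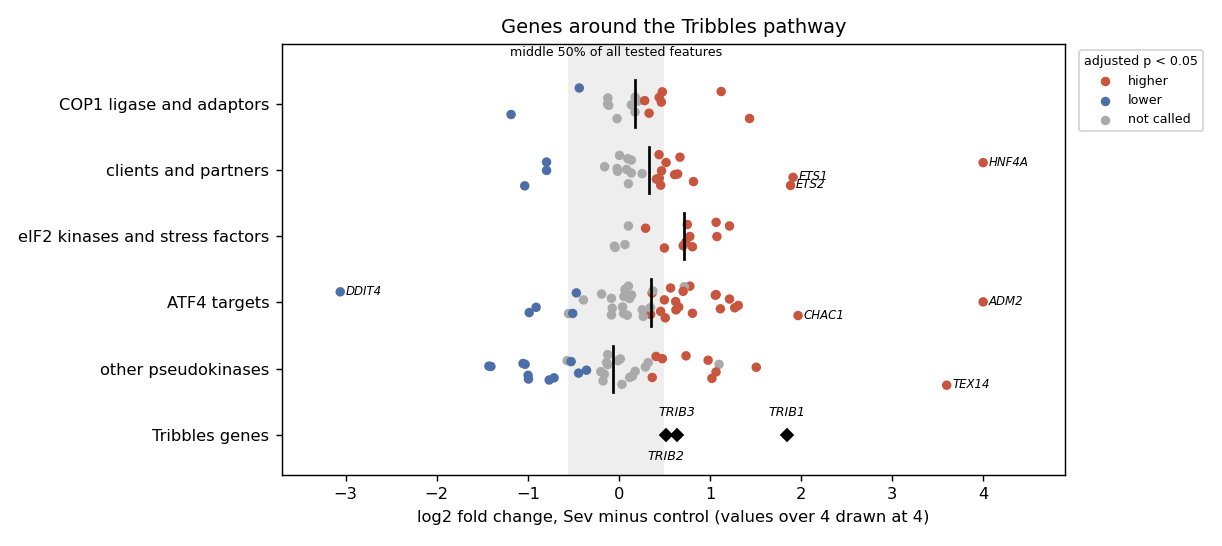
Log2 fold change (Sev minus control) of the tested genes of the 5 lists, one point per gene, with the list median as a line, the 3 Tribbles genes as diamonds and the middle 50% of all tested features shaded. Values over 4 are drawn at 4. The medians are 0.18, 0.33, 0.72, 0.35 and −0.066 for the COP1, client, eIF2, ATF4 target and pseudokinase lists.

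Genes with the most similar profile were found for each member among 11100 protein-coding genes, by the Euclidean distance between log2 CPM values of the 6 libraries, each centred on its gene's mean. For TRIB1 these were ALPK3 (distance 0.145), ABCC2 (0.157), PER2 (0.199), ACP4 (0.199) and RNF19B (0.210), against a median distance of 2.28 over all genes. Their log2 fold changes ran from 1.74 (PER2, a circadian repressor gene) to 1.85 (ACP4). For TRIB2 they were TBC1D25 (0.0806), HS6ST3 (0.117), PLK3 (0.122) and LZTS1 (0.152) among others, against a median of 0.962, so these genes were also high in Sev library 2. For TRIB3 they were SCARF2 (0.172), PDZD2 (0.208), PKIG (0.221), CYB561D1 (0.226) and SIPA1L2 (0.232), against a median of 0.989. No gene was among the 5 nearest of more than 1 member.

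The members' values under other processing are plotted with the settings named. TRIB1 stayed between 1.57 and 1.86 on the log2 scale over 15 alternatives. TRIB2 ran from 0.26 to 0.70 and TRIB3 from 0.39 to 0.78, and no member changed sign.

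**Figure D5:**
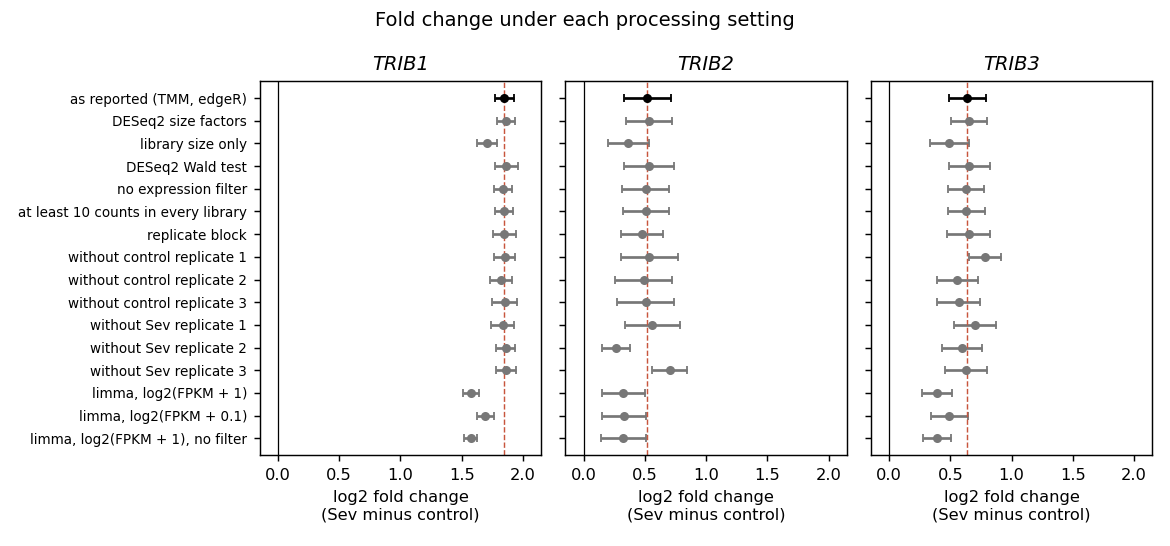
Log2 fold change (Sev minus control) of TRIB1, TRIB2 and TRIB3 in the reported fit and in each of 15 alternative settings, with the standard error as whiskers and the reported value as a dashed line. TRIB1 lies above 1.5 throughout, and TRIB2 drops to 0.26 without Sev library 2.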

How the data were processed

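Per the labels and the study's methods, ribosomal RNA-depleted, strand-specific libraries of U251 cells were sequenced, 3 control and 3 Sev. The authors deposited raw counts per gene, and FPKM values, a unit scaled for gene length and library size, whose computation is not given in the sources used here. Their processing notes name bcl2fastq 2.19, featureCounts and hg18, and the aligner is not given in the sources used here. Symbols, positions and gene types were joined by Ensembl identifier to a name table and to GENCODE 29 on GRCh38, a build other than hg18. The files hold no coordinates.

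Counts were filtered with filterByExpr, normalized by TMM and tested with edgeR 4.0.16 (glmQLFit, glmQLFTest; R 4.3.3), 3 libraries against 3 with no covariate, and Benjamini-Hochberg adjustment over 27514 features. Rose and fell mean an adjusted p under 0.05. An exact permutation test of 3 against 3 cannot go under 0.1. Each standard error was taken as |log2 fold change| over the root of its F statistic. Replicates of a group differed beyond sampling noise in 49.0% to 66.5% of 15608 genes, so none looked like a copy of another, though repeated preparations of 1 culture could differ as much. The fits were tested on simulated data.

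The members and lists were chosen with earlier results of these data known, and the lists come from general knowledge and share some genes. Named were STK40, COP1, CEBPA, CEBPB, ATF4, DDIT3, AKT1 and MAP2K1, the 4 genes of smallest p per direction in each list among those called, the nearest tested neighbour on each side of a member, and the 5 most similar protein-coding genes of at least 5 mean CPM. SLC38A2 and the genes listed with it, ADM2, HNF4A, ASNS, MIR3125, CAMKV, EIF2S1 and the eIF2 kinase genes were named after their values were seen. The results for 2 of the genes under this rule are not reported here.

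In 15 alternatives, the scaling was by library size only or by size factors of DESeq2, the test was the Wald test of DESeq2 1.42.0, the filter was dropped or set to a minimum of 10 counts throughout, the replicate number was a block, and 1 of the 6 libraries was left out. The FPKM were fitted with limma 3.58.1 as log2(FPKM + 1), with a minimum of 0.5 FPKM in 3 libraries or none, and as log2(FPKM + 0.1).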

Additional observations from a re-analysis of the deposited data

How the results depend on the processing

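All 3 members kept their direction in every one of the 15 alternatives. The value of TRIB1, 1.85, became 1.71 with library size only, 1.57 on log2(FPKM + 1) with or without the filter and 1.69 on log2(FPKM + 0.1), and 1.82 to 1.86 with a library left out. TRIB3 became 0.39 on log2(FPKM + 1) with or without the filter, and 0.56 to 0.78 with a library left out. TRIB2 ran from 0.26 without Sev replicate 2 to 0.70 without Sev replicate 3. Library size only moved the median of all features by −0.14 and gave 4665 higher and 7502 lower features, against 6094 and 5920 with TMM, and the FPKM settings gave 3676 and 6709, 3623 and 6530, and 4542 and 6814. Features over 1 or under −1 on the log2 scale with an unadjusted p under 0.05, the study's threshold, numbered 6462, and 3839 with at least 10 counts, 1269 on log2(FPKM + 1) and 1270 without its filter. These scales compress low values or drop low features.

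The totals of called genes in the 5 lists stayed within 1.5 times their value, but the split into higher and lower moved with library size only and the FPKM settings, as did the medians (0.18 to 0.034 for the COP1 list, 0.33 to 0.055 for clients, 0.72 to 0.56 for eIF2 genes, 0.35 to 0.12 for ATF4 targets and −0.066 to −0.27 for pseudokinases at the lowest). The splits went, for the COP1 list from 7 and 2 to 5 and 4 (library size only and both filtered FPKM settings) or 3 and 3 (FPKM without the filter), for ATF4 targets from 20 and 5 to 17 and 8 (library size only), 16 and 9 (log2(FPKM + 1), with or without the filter) or 16 and 10 (log2(FPKM + 0.1)), for clients and partners from 13 and 3 to 10 and 3 (library size only), 9 and 3 (both filtered FPKM settings) or 8 and 3 (without the filter), and for pseudokinases from 9 and 11 to 7 and 15 (library size only). Among single named genes, AKT1 turned to 0.00064 with DESeq2's size factors, 0.00067 with its Wald test, and ran from −0.13 to 0.069 with a library left out, positive in 3 of these fits (0.041, 0.016 and 0.069). CEBPB turned to −0.035 with library size only and to −0.029, −0.032 and −0.029 on the FPKM settings. NRSN2 ran from −0.061 without Sev replicate 1 to 0.78 without Sev replicate 2. COP1 lost its call without any library but Sev replicate 2. CEBPA and UBE2D2 lost theirs on log2(FPKM + 1) without the filter (adjusted p = 0.0789 and 0.0533), and NSMCE2 gained one with library size only and on both filtered FPKM scales (adjusted p = 0.0419 to 0.0492). The deviations of same-numbered libraries correlated at −0.0072, 0.0035 and 0.027, and those of the other combinations at −0.038 to 0.032. Deviations from means of 3 libraries cannot show whether same-numbered libraries were handled together, and no label says so. With the replicate number as a block, 10249 features were called, TRIB1, TRIB2 and TRIB3 had log2 fold changes of 1.85, 0.48 and 0.65, and among 44 single genes the call of COP1 changed (adjusted p = 0.092). Some genes, such as ADM2, rest on few counts, and the effect of depth was not tested.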
